A study of Mus musculus with 9 samples.

Results

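The genes described here encode voltage-gated sodium channels (Scn), voltage-gated calcium channels (Cacna1, Cacna2d, Cacnb), hyperpolarization-activated HCN channels (Hcn) and the sodium leak channel Nalcn. They were picked out by matching gene symbols, and 37 of the 22255 genes in the deposited table matched. The set was drawn up with earlier results of these data known. RNA was sequenced from hippocampal synaptoneurosomes, a preparation in which resealed synaptic endings are concentrated, of Fmr1 KO mice on the C57Bl/6J strain. All 9 samples carry the Fmr1 knockout, which models fragile X syndrome, so no sample here has an intact Fmr1 gene. There were 4 samples after sub-chronic AM6545 (A, B, C and E), a CB1 cannabinoid receptor antagonist that acts mainly outside the brain, and 5 after vehicle (A to E). Dose, duration, age and sex are not given in the sources used here. Nor do they say whether a sample is 1 mouse or a pool. The p-values thus set a group difference against the spread between these samples, which may be partly technical.

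Sodium channels carry the rapid inward current of the action potential. Their alpha subunits form the pore, and their beta subunits set gating and membrane placement. Calcium channels couple depolarization to transmitter release (P/Q, N and R types), to signalling to the nucleus (L type) and to low-threshold bursts (T type). Their alpha2delta and beta subunits carry the pore to the membrane. HCN channels open on hyperpolarization and, in hippocampal pyramidal cells, dampen dendritic summation. NALCN passes a steady sodium leak that sets resting excitability.

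The coding sequence around the ion-selecting site is shown because a single position there separates the sodium channels and Nalcn from the calcium channels. It also separates T type from the other calcium channels shown. In each line the stretch comes from the longest coding transcript of the gene in GENCODE M21 (build GRCm38). For the sodium, calcium and Nalcn genes it lies in the third repeat of the channel, and the capitals mark the codon of that repeat's selectivity filter residue. Filter residues of the other repeats are not shown and were not compared. The marked residue is a lysine in sodium channels and Nalcn, a glutamate in P/Q, R and L type calcium channels, and an aspartate in T type channels.
Scn1a: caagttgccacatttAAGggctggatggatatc
Scn2a: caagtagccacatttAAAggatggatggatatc
Scn8a: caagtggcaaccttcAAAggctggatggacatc
Nalcn: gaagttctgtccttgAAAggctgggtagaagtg
Cacna1a: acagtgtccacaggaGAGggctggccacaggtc
Cacna1e: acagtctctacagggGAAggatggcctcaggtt
Cacna1c: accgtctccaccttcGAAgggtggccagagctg
Cacna1h: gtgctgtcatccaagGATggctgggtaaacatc

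Over these 33 bases Scn2a matched Scn1a at 30, Scn8a at 27, Nalcn at 19 and Cacna1e at 17. Within 1 coding exon lay the stretches of Nalcn (chr14:123302910-123302942, minus strand) and Cacna1h (chr17:25383493-25383525, minus). The others span 2 coding exons with the intron between them: Scn1a (chr2:66287750-66288879, minus), Scn2a (chr2:65735885-65743091, plus), Scn8a (chr15:101029857-101031736, plus), Cacna1a (chr8:84581323-84583562, plus), Cacna1e (chr1:154443999-154444900, minus) and Cacna1c (chr6:118654452-118656141, minus).

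Scn1a, Scn2a, Scn3a and Scn9a, on chromosome 2, resemble each other far beyond the filter, which bears on how reads are assigned. The longest run shared by Scn1a and Scn2a was 188 bases, whereas Scn2a and Scn8a shared no run longer than 32. Of the distinct 31-base words in a gene's protein-coding transcripts, the share also found in another gene of the table was 12.8% for Scn2a, 12.2% for Scn3a, 9.52% for Scn1a and 7.50% for Scn9a. Hcn3 shared 17.3%, mostly with Pklr on the opposite strand, and Cacna1d 6.51%, mostly with Chdh. Pklr itself had between 0 and 2 counts in a sample and Chdh between 21 and 44. The share was at most 3.59% for the other 31 members. By this measure reads are harder to assign to Scn1a, Scn2a, Scn3a and Scn9a than to Scn8a, which shared 0.521%. How far this moved their levels was not tested. With the strand setting not given in the sources used here, how reads were divided between Cacna1d and Chdh, and between Hcn3 and Pklr, was not tested.

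Totals ran from 17628922 to 27263393 counts per sample, of which the members held 32919 to 57840, or 0.177% to 0.231%. Fmr1 was counted in every sample, at 9.45 to 13.3 CPM. The sources used here do not say which part of the gene is deleted, so this checks no label. Markers of excitatory hippocampal neurons such as Slc17a7 were present, at a mean of 1049 CPM in AM6545 and 897 CPM in vehicle samples. Markers of inhibitory neurons, glia and vessels were present too. Choroid plexus markers, summed, ranged from 63.7 to 978 CPM in AM6545 samples and from 50.3 to 4478 CPM in vehicle samples. All 10 excitatory neuron markers were higher in AM6545 samples, against 48.2% of all genes. At an unadjusted p under 0.05 by edgeR 2 of them were higher, against 3.03% of all genes. Of 7 microglia markers 6 were higher (1 at that p). All 8 choroid plexus markers were lower (1 at that p), as were all 6 ependymal markers (3) and 6 of 7 endothelial markers (2), against 4.18% of all genes. Interneuron markers and mural or leptomeningeal markers were each lower for 6 of 9 (0), and thalamus and habenula markers for 5 of 8 (1). Astrocyte and oligodendrocyte markers were each higher for 3 of 7, and oligodendrocyte precursor markers for 3 of 5. No excitatory, choroid plexus or ependymal marker was under 1 CPM throughout. Ependymal markers summed to 12.02 to 13.73 CPM in AM6545 and 12.4 to 27.3 CPM in vehicle samples, and endothelial markers to 52.9 to 73.1 and 46.8 to 99.6 CPM. Excitatory markers summed to 2310 to 2710 CPM in AM6545 and 2089 to 2507 CPM in vehicle samples. The part of any of these in the values below was not tested. In such bulk samples, fewer cells of a type and less RNA per cell cannot be told apart.

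Levels are given in CPM, counts relative to each library's TMM-adjusted size, which compares samples but not genes of different length. Of the 37 members, 33 passed the count filter and were tested. The 4 others were at or near 0. Scn4a, the skeletal muscle sodium channel, had 1 count over all samples together, and Scn10a and Scn11a, the channels of pain-sensing neurons, had 3 and 11. Cacna1f, the retinal L-type channel, had 15, with 6 of them in AM6545 B. A level of 3 counts corresponds to 0.110 to 0.170 CPM in these samples. Hcn4, the principal pacemaker channel of the heart, and Cacna1s, the L-type channel of skeletal muscle, were tested but never exceeded 26 counts.

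**Figure D1:**
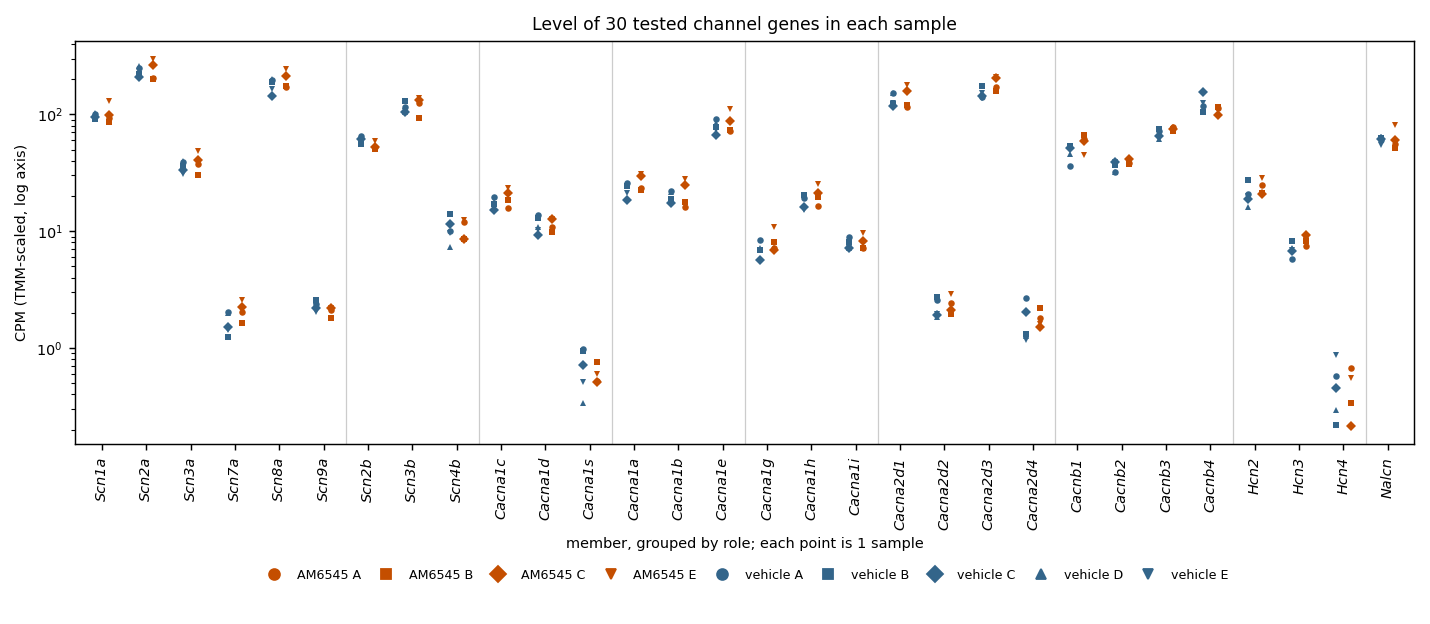
CPM (log axis) of 30 of the 33 tested members in each of the 9 samples, grouped by role; each point is 1 sample, orange for AM6545 and blue for vehicle. Scn2a, Scn8a and Cacna2d3 lie highest and Hcn4 and Cacna1s lowest, and the groups overlap for every member drawn.

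Levels per kilobase of transcript allow genes to be compared only as far as the length used holds. They are given for the vehicle samples, first by median transcript length. Scn8a, the main axonal sodium channel of mature neurons, was at 84.8 ± 11.5 (SD, n = 5) and Cacna2d3, an alpha2delta subunit, at 68.2 ± 6.98 CPM per kilobase (SD, n = 5), with overlapping ranges. Cacna2d1 followed at 34.6 ± 4.31 and Scn2a at 30.7 ± 3.01 CPM per kilobase (SD, n = 5), and their ranges overlapped too.

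These values used the median length of a gene's protein-coding transcripts. With the longest transcript instead, Scn8a was at 15.7 CPM per kilobase and Scn2a, at 25.8, led the sodium alpha subunits. Likewise Cacna1i led the T-type channels at 13.1 CPM per kilobase by median length but was at 0.786 by longest length, where Cacna1h led at 2.11. Of the 8 role classes with more than 1 member tested, the leading member was the same by both lengths in 6. By median length these included Cacna1c for L-type channels (2.43 ± 0.240), Cacna1e among P/Q, N and R types (8.09 ± 1.004) and Cacnb3 among beta subunits (27.5 ± 2.25 CPM per kilobase, SD, n = 5). The L-type lead was nearly a tie by longest length, with Cacna1c at 1.315 and Cacna1d at 1.313 CPM per kilobase. Among HCN genes Hcn2 was at 6.54 ± 1.31, Hcn3 at 1.74 ± 0.222 and Hcn4 at 0.0790 ± 0.0417 CPM per kilobase (SD, n = 5), with no overlap between them.

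No channel gene passed the threshold between AM6545 and vehicle samples. By edgeR's quasi-likelihood test, with p-values adjusted over all 14512 genes tested, 0 of the 33 members had an adjusted p under 0.05, against 0% of all genes tested. Members' adjusted p ran from 0.653 to 0.982. At an unadjusted p under 0.05 edgeR gave 0 members, against 7.21% of all genes (3.03% higher and 4.18% lower). DESeq2 and limma-voom also called 0 members. At an unadjusted p under 0.05 they gave 1 (Cacna2d3) and 0 of the 33 members, against 1121 and 870 of the 14512 genes. At an unadjusted p under 0.1 there were 4 higher members (Cacna2d3, Hcn3, Cacnb1 and Cacna1h, 12.1% of those tested, against 6.53% of all genes) and 1 lower (Scn2b, 3.03% against 8.54%). For no member did the CPM ranges of the groups separate, against 1.45% of all genes. Members' log2 fold changes ran from -0.21 for Cacna1s to 0.38 for Scn7a, with standard errors from 0.09 to 0.46.

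Within those limits 27 of the 33 members had a positive log2 fold change, against 48.2% of all genes tested. Their median was 0.11, and that of all genes was -0.0090. This lean rested on AM6545 E. Without that sample 17 of 33 were positive, against 46.3% of all genes, and the median was 0.022. At an unadjusted p under 0.05, edgeR then gave 2 members, or 6.06%, against 12.6% of all genes. Of these 2 members 1 was higher. With any other sample left out, 26 to 28 members were positive. AM6545 E held the highest of the 9 values for 20 of the 33 members, against 14% of all genes, and the lowest for none, against 14.1%. Its median deviation from a member's mean over the 9 samples was 0.31 log2 units, while over all genes it was -0.0012. In AM6545 E 29 members were above their mean, against 14 in AM6545 A, 9 in AM6545 B and 22 in AM6545 C. In vehicle A to E the counts were 23, 18, 11, 14 and 5. AM6545 C and vehicle A thus leaned the same way as AM6545 E but less, with median deviations of 0.075 and 0.078.

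**Figure D2:**
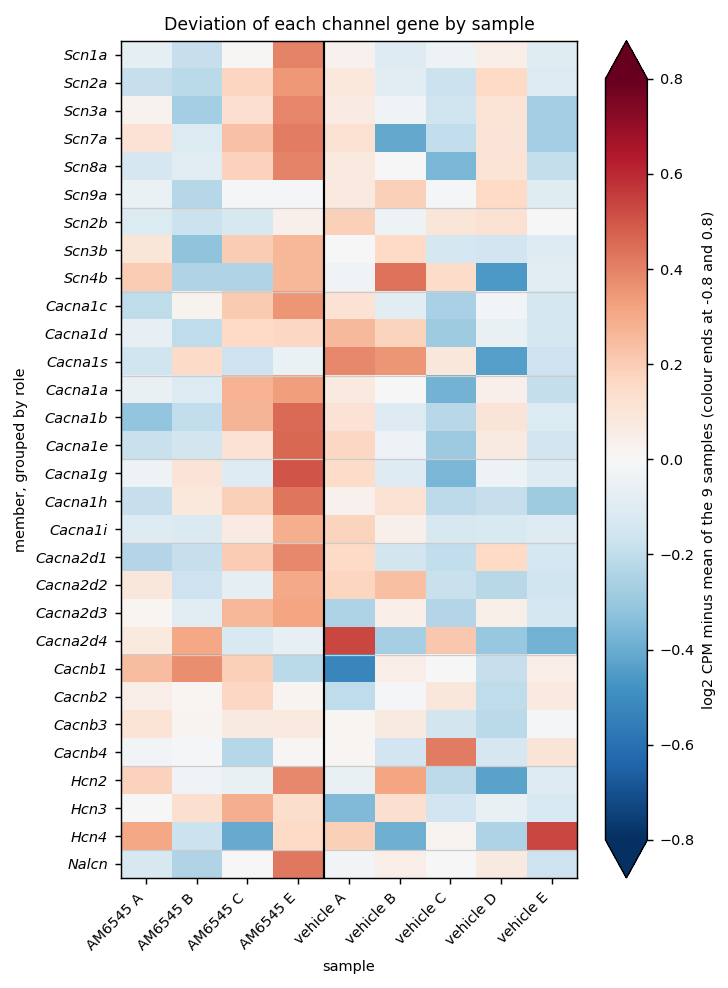
Deviation of log2 CPM from the mean of the 9 samples for 30 of the 33 tested members (rows, grouped by role) and sample (columns); red is above the mean and blue below. The AM6545 E column is red for 26 of the 30 members drawn, while AM6545 A and B are mixed or blue.

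**Figure D3:**
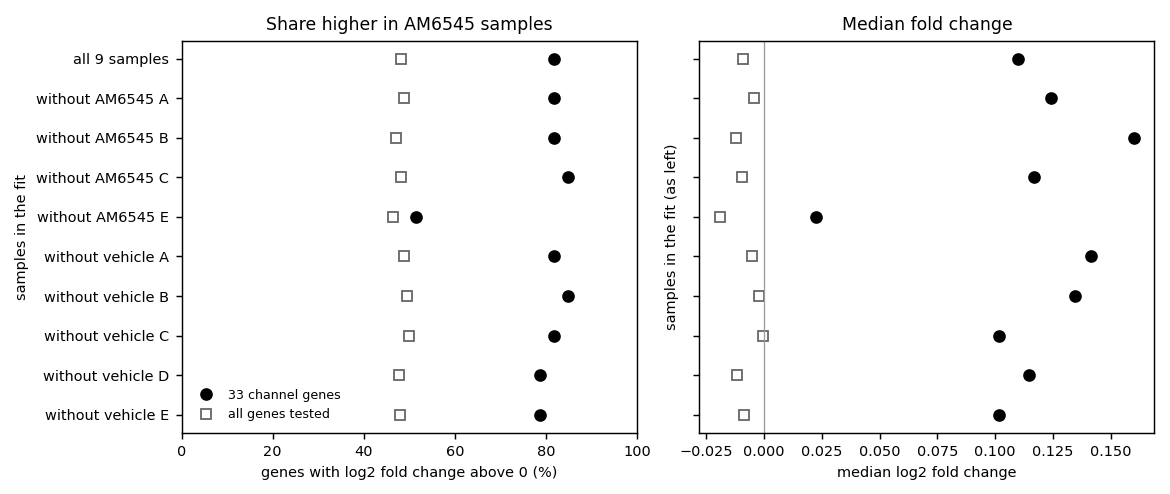
Share of genes with a positive log2 fold change (left, percent) and median log2 fold change (right) in the fit of all samples and with each sample left out; filled circles are the 33 members and open squares all genes tested. Leaving out AM6545 E brought the members from 81.8% to 51.5% and their median from 0.11 to 0.022.

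Members are long, with a median transcript length of 6118 bases against 2255 over all genes tested. Fold change and transcript length were correlated at a Spearman rho of 0.24 over the 14438 tested genes with a length and of -0.028 over the 33 members. Over the 33 members, deviation in a sample and transcript length had a Spearman rho of 0.38 in AM6545 E and 0.33 in vehicle D. In the other samples it ran from -0.26 to 0.17. All of these are descriptions across genes, which share the same 9 libraries. With each sample's length trend removed, 26 members were positive, with a median of 0.10. AM6545 B, vehicle C and vehicle D each held the lowest value for 7 members, against 14.8%, 15.4% and 12.2% of all genes. These included Scn1a, Scn2a and Nalcn in AM6545 B, Cacna1a, Cacna1e and Scn8a in vehicle C, and Scn4b and Hcn2 in vehicle D.

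Among the sodium alpha subunits 7 of 10 were tested, 6 with a positive and 1 with a negative fold change, and none differed beyond the replicate spread. Scn8a was at 171, 176, 213 and 246 CPM in AM6545 A, B, C and E, and at 198, 187, 145, 202 and 164 CPM in vehicle A to E. AM6545 C and E lay above all vehicle samples while A and B lay among them. The AM6545 mean was 201 ± 35.2 CPM (SD, n = 4) and the vehicle mean 179 ± 24.2 CPM (SD, n = 5). The log2 fold change was 0.17 (SE 0.13), with an adjusted p of 0.717 by edgeR. It was 0.059 without AM6545 E and 0.10 without vehicle C.

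Scn2a, which carries the early sodium current of excitatory neurons, was the most abundant sodium channel in CPM. It was at 206, 201, 263 and 297 CPM in AM6545 A, B, C and E and at 248, 220.5, 208, 261 and 217 CPM in vehicle A to E. Both the lowest and the highest sample were AM6545 samples. Its log2 fold change was 0.07 (SE 0.13), and 2 standard errors on either side span -0.19 to 0.32. Without AM6545 E it was -0.047.

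Scn1a, the sodium channel on which fast-spiking interneurons depend, averaged 102 ± 19.0 CPM after AM6545 and 96.3 ± 4.85 CPM after vehicle (SD, n = 4 and n = 5), and Scn3a, most expressed before birth, at 39.4 ± 7.46 against 35.7 ± 3.88 CPM. AM6545 E was again the highest sample for both, and their log2 fold changes of 0.08 (SE 0.11) and 0.14 (SE 0.13) were -0.050 and 0.022 without it. Scn9a, best known from sensory neurons, was among the 3 lower members with the smallest p. Its CPM was 2.12, 1.82, 2.19 and 2.18 in AM6545 A, B, C and E and 2.37, 2.60, 2.18, 2.54 and 2.05 in vehicle A to E. The groups overlapped (log2 fold change -0.18, SE 0.18, and -0.12 without AM6545 B). Scn7a, a sodium-sensing relative, averaged 2.12 ± 0.390 and 1.64 ± 0.349 CPM (SD, n = 4 and n = 5), on 30 to 65 counts a sample.

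All 4 sodium beta subunits were tested, 2 positive and 2 negative. Scn2b, the beta2 subunit that is linked to the alpha subunit by a disulfide bond, had the smallest p among the lower members. It was at 53.0, 50.6, 52.3 and 58.7 CPM in AM6545 A, B, C and E and at 65.1, 55.4, 61.0, 62.3 and 57.3 CPM in vehicle A to E. All 4 AM6545 samples were below the vehicle mean, and the groups overlapped only through AM6545 E. The log2 fold change was -0.17 (SE 0.09), with an adjusted p of 0.653 by edgeR.

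Scn3b was at 122 ± 20.7 against 112 ± 10.6 CPM, and Scn4b at 10.4 ± 2.06 against 10.5 ± 2.47 CPM (SD, n = 4 and n = 5). For Scn3b the log2 fold change of 0.12 (SE 0.12) was 0.053 without AM6545 E and 0.23 without AM6545 B.

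Of the calcium channel pores of the P/Q, N and R types, all 3 were tested and positive. Cacna1e, the R-type pore, was the most abundant, at 71.6, 73.2, 87.9 and 112 CPM in AM6545 A, B, C and E and 91.0, 78.6, 66.3, 85.1 and 72.7 CPM in vehicle A to E. Only AM6545 E lay above every vehicle sample, and the log2 fold change of 0.13 (SE 0.14) was -0.021 without it. Cacna1a, the P/Q-type pore of most central terminals, was at 26.4 ± 4.20 against 22.9 ± 2.96 CPM, with a log2 fold change of 0.21 (SE 0.13). Cacna1b, the N-type pore, was at 21.6 ± 5.62 against 19.8 ± 2.06 CPM (SD, n = 4 and n = 5), with 0.13 (SE 0.15). Without AM6545 E these were 0.13 for Cacna1a and -0.017 for Cacna1b.

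L-type pores held Cacna1c, the main L-type channel of brain, at 15.8, 18.6, 21.2 and 23.4 CPM in AM6545 A, B, C and E and 19.8, 17.2, 15.1, 17.9 and 16.5 CPM in vehicle A to E. AM6545 C and E lay above every vehicle sample and A near the lowest of them. The log2 fold change was 0.19 (SE 0.12), and 0.10 without AM6545 E. Cacna1d, which opens at lower voltages, was at 11.6 ± 1.47 against 11.4 ± 1.85 CPM (SD, n = 4 and n = 5), a log2 fold change of 0.02 (SE 0.14).

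All 3 T-type pores were positive. Cacna1h averaged 20.7 ± 3.67 CPM after AM6545 and 17.4 ± 2.18 CPM after vehicle (SD, n = 4 and n = 5). By edgeR its log2 fold change was 0.25 (SE 0.13), with an adjusted p of 0.653. Cacna1g averaged 8.25 ± 1.77 and 7.02 ± 0.939 CPM, 0.24 apart on the log2 scale (SE 0.16). Cacna1i was at 7.24, 7.16, 8.20 and 9.65 CPM in AM6545 A, B, C and E and 8.90, 8.05, 7.11, 7.14 and 7.24 CPM in vehicle A to E. Its groups overlapped almost fully (log2 fold change 0.07, SE 0.13). AM6545 E was the highest sample for each of these 3 genes, and without it the log2 fold changes were 0.14 for Cacna1h, 0.079 for Cacna1g and -0.027 for Cacna1i.

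**Figure D4:**
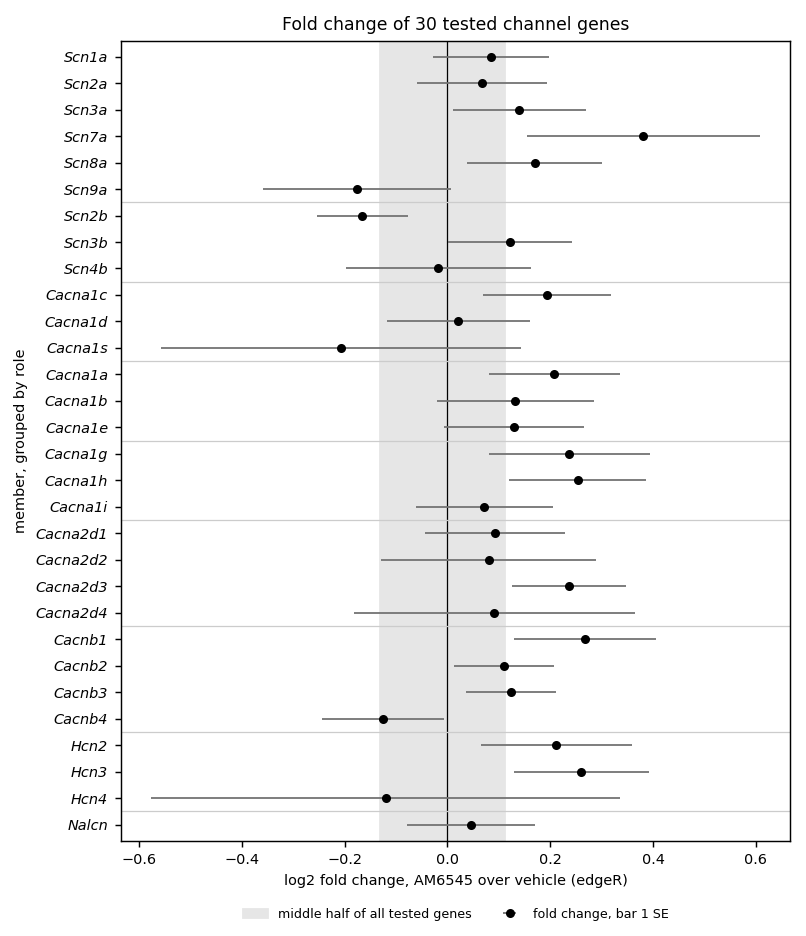
log2 fold change of AM6545 over vehicle for 30 of the 33 tested members, with bars of 1 SE, grouped by role; the grey band runs from the lower to the upper quartile of all genes tested, -0.13 to 0.11. Of the 30 points 24 lie right of 0, between -0.21 for Cacna1s and 0.38 for Scn7a.

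The auxiliary calcium channel subunits held the smallest p of the set. Cacna2d3, an alpha2delta protein of presynaptic terminals, was at 170.1, 159, 203 and 209.6 CPM in AM6545 A, B, C and E and at 142, 175, 143, 174 and 153 CPM in vehicle A to E. All 4 AM6545 samples lay above the vehicle mean, but A and B lay within the vehicle range. The AM6545 mean was 185 ± 24.6 CPM (SD, n = 4) and the vehicle mean 157 ± 16.1 CPM (SD, n = 5). The log2 fold change was 0.24 (SE 0.11), with an adjusted p of 0.653 by edgeR. Cacna2d1, the gabapentin-binding subunit, was at 143 ± 30.1 against 134 ± 16.7 CPM (SD, n = 4 and n = 5), and its log2 fold change of 0.09 (SE 0.14) was -0.032 without AM6545 E. Cacna2d2 and Cacna2d4 were under 3 CPM in every sample.

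Cacnb1, a beta subunit best known from skeletal muscle, was at 61.6, 67.1, 59.2 and 44.5 CPM in AM6545 A, B, C and E and at 36.0, 53.7, 51.9, 45.6 and 53.8 CPM in vehicle A to E. AM6545 E was the lowest of the AM6545 samples, while the 3 others lay above all vehicle samples. Cacnb1 was thus 1 of 4 members below their mean in AM6545 E, the others being Cacna2d4, Cacna1s and Scn9a. AM6545 samples averaged 58.1 ± 9.66 CPM (SD, n = 4) and vehicle samples 48.2 ± 7.61 CPM (SD, n = 5). By edgeR this was 0.27 on the log2 scale (SE 0.14), with an adjusted p of 0.653. The log2 fold change was 0.38 without AM6545 E and 0.18 without vehicle A. Cacnb4, the beta subunit mutated in the lethargic mouse, was at 114, 115, 98.8 and 117 CPM in AM6545 A, B, C and E and 117, 104, 155, 105 and 124 CPM in vehicle A to E. Vehicle C stood highest, and the log2 fold change of -0.13 (SE 0.12) was -0.022 without it and -0.073 without AM6545 C.

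Cacnb3 was at 77.5, 72.7, 75.3 and 75.6 CPM in AM6545 A, B, C and E and at 72.5, 75.5, 64.8, 61.8 and 70.9 CPM in vehicle A to E. The AM6545 samples were close together and above the vehicle mean, but vehicle B lay among them and vehicle A just below (log2 fold change 0.12, SE 0.09). Cacnb2 was at 38.7 ± 1.95 against 35.8 ± 3.63 CPM (SD, n = 4 and n = 5), and its log2 fold change of 0.11 (SE 0.10) was 0.073 without vehicle A and 0.071 without vehicle D.

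All 4 HCN genes were tested, 3 positive and 1 negative. Hcn3 was at 7.49, 8.26, 9.27 and 8.34 CPM in AM6545 A, B, C and E and 5.78, 8.23, 6.70, 7.19 and 6.85 CPM in vehicle A to E. Vehicle B lay among the AM6545 samples and the other vehicle samples below them. AM6545 samples averaged 8.34 ± 0.727 CPM (SD, n = 4) and vehicle samples 6.95 ± 0.888 CPM (SD, n = 5), and edgeR gave a log2 fold change of 0.26 (SE 0.13) with an adjusted p of 0.653. Hcn2, the form with strong cAMP gating, was at 23.8 ± 3.59 against 20.6 ± 4.13 CPM (SD, n = 4 and n = 5). Its log2 fold change of 0.21 (SE 0.15) was 0.11 without AM6545 E, 0.13 without vehicle D and 0.34 without vehicle B.

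Nalcn was at 55.6, 51.3, 60.8 and 81.6 CPM in AM6545 A, B, C and E and at 59.9, 63.1, 60.9, 63.9 and 54.1 CPM in vehicle A to E. AM6545 E stood well above all others, and the 3 remaining AM6545 samples lay at or below the vehicle mean or just above it. Its log2 fold change was 0.05 (SE 0.12) and -0.11 without AM6545 E.

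The balance between related channels was compared within each sample, which needs no scaling between libraries. The 4 pairs were tested by two-sided exact permutation, where the smallest p possible is 0.0159, with Benjamini-Hochberg adjustment over the 4. No pair passed, and 3 are given here. The log2 ratio of Scn2a to Scn8a counts was 0.27, 0.19, 0.31 and 0.27 in AM6545 A, B, C and E and 0.33, 0.23, 0.52, 0.37 and 0.41 in vehicle A to E. The difference in means was -0.11, and vehicle B lay among the AM6545 samples (exact permutation p = 0.0952, adjusted p = 0.254). Without vehicle B the difference was -0.15 (unadjusted exact permutation p = 0.0286, the smallest that 4 against 4 samples can give). With each of the other samples left out, the unadjusted exact permutation p ran from 0.107 to 0.214.

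The ratio of Cacna1c to Cacna1d was 0.76 ± 0.17 (SD, n = 4) against 0.61 ± 0.13 (SD, n = 5), a difference of 0.15 (exact permutation p = 0.127, adjusted p = 0.254). It was 0.23 without AM6545 A (unadjusted exact permutation p = 0.0357, the smallest that 3 against 5 samples can give). With each of the other samples left out, the unadjusted exact permutation p ran from 0.114 to 0.286. For Cacna1a to Cacna1b the difference was 0.11 (exact permutation p = 0.270, adjusted p = 0.360).

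**Figure D5:**
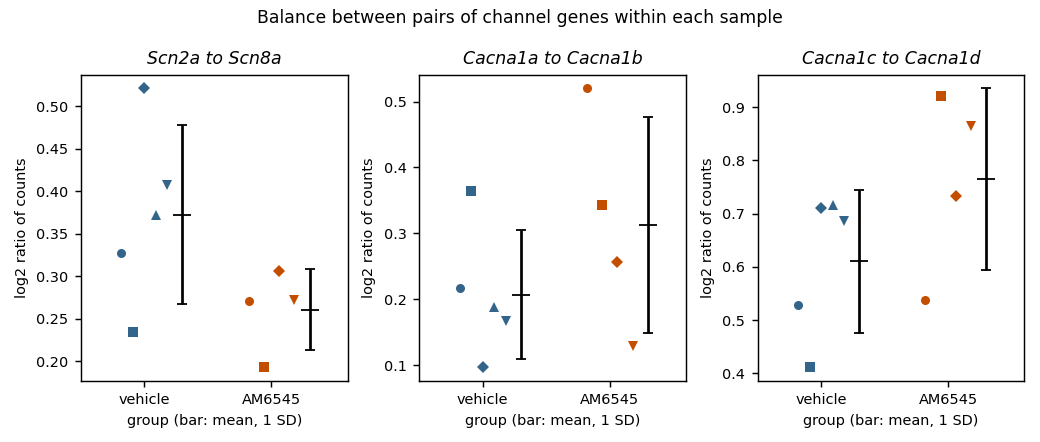
log2 ratio of counts of 3 pairs of members in each sample, blue for vehicle and orange for AM6545, with the mean and 1 SD beside each group. The groups overlap in every panel.

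Genes whose proteins bind these channels or act alongside them were read from lists written with earlier results of the series known. Of 9 sodium channel partners, 7 were positive and 2 negative, against 48.2% of all genes positive. By edgeR 2 were higher at an unadjusted p under 0.05, against 3.03% of all genes, and 0 passed the threshold. These were Nedd4l, a ubiquitin ligase that removes sodium channels from the membrane, at 103 ± 5.99 and 89.9 ± 4.77 CPM after AM6545 and vehicle (SD, n = 4 and n = 5), and Sptbn4, the spectrin of the axon initial segment, at 32.8 ± 7.39 and 25.1 ± 5.25 CPM. Their adjusted p was 0.653 by edgeR. The lower one with the smallest p was Fgf12, an intracellular modulator of sodium channels (log2 fold change -0.19, SE 0.15). The list's median was 0.09.

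Of 14 calcium channel partners 13 were tested, 7 positive and 6 negative, with 0 at an unadjusted p under 0.05 by edgeR and a median of 0.0079. Among them were Stac (0.22, SE 0.18), an adaptor of L-type channels, and Calm2 (log2 fold change -0.18, SE 0.13), a calmodulin gene. Of 5 HCN partners 2 were positive and 3 negative, with a median of -0.040. The higher one with the smallest p was Kctd3 (log2 fold change 0.08, SE 0.09). Kcne2, which the choroid plexus also expresses, was the lower one, from 0.472 to 10.7 CPM in AM6545 and from 0.660 to 38.2 CPM in vehicle samples (log2 fold change -1.73, SE 0.82, adjusted p of 0.653 by edgeR). The choroid plexus markers were lower as well, as given above, and their part in this value was not tested. Of the NALCN complex Unc79 (0.0057, SE 0.14), Unc80 (-0.026, SE 0.10) and Fam155a (-0.13, SE 0.09) were tested, with 0 at an unadjusted p under 0.05 by edgeR.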

How the data were processed

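Per the labels' protocols, libraries were made with a SMARTer Ultra Low Input kit and sequenced on an Illumina NovaSeq. The deposited values are estimated counts per gene, not all whole, which the authors deposited as one table. The submitters' processing notes name Salmon 1.3 and DESeq2 1.30 and the builds GRCm39 and mm10, with no role or order. Strand setting and annotation are not given in the sources used here. The 36 pairs of samples all differed beyond counting error (chi-square over degrees of freedom at least 10.03).

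Symbols came from GENCODE M21 by identifier without version, for 22155 of 22255 genes and all members. Estimated counts were rounded, filtered with filterByExpr, scaled with TMM and compared with edgeR 4.0.16 (quasi-likelihood F-test, R 4.3.3), all genes in 1 fit, with Benjamini-Hochberg adjustment at 0.05. SE is the absolute log2 fold change over the square root of F. Ratios used log2 of counts plus 0.5 and scipy 1.17.1. DESeq2 1.42.0, limma 3.58.1, other scalings and filters, a replicate block, each sample left out and a length trend correction (lowess, span 0.3) were tried. Deviations used log2(CPM + 0.5). Same-letter samples did not deviate together in 3 of 4 letters, so no pairing was assumed.

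Members and lists were chosen with earlier results of these data known. Values of 3 members and some sequences are not reported here; the members stay in all fits and counts. Members given in full led their role class per kilobase, or had one of the 3 smallest p in a direction, an unadjusted p under 0.05 or separate groups. Scn2a, with its value in every sample, and Cacna1h, by group means and SD, were added after their values were seen.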

Additional observations from a re-analysis of the deposited data

Results flagged for a closer look

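In 1 of 74 groups of values (33 members and 4 ratios in each treatment group) a sample stood farther from the others than Dixon's 95% critical value, where about 3.7 would by chance. For Cacnb4 AM6545 C stood lowest at 98.8 CPM and A, B and E lay between 114 and 117 CPM, a gap of 0.856 of the group's range against a critical value of 0.829.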

How the results depend on the processing

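No member passed the adjusted threshold under any of 21 alternatives, and the count over all genes was 0 to 1 with a sample left out (1 without AM6545 A). Members at an unadjusted p under 0.05, 0 with all samples, numbered 1 with DESeq2 size factors, with no count filter, with DESeq2 and with the length trend removed, 2 with limma-voom sample weights, and 0 to 4 with a sample left out (4 without vehicle B). Over all genes that count was 1047 of 14512, and 1823 with sample weights. With a sample left out it was 496 to 1848 (1797 of 14433 genes without vehicle B). It was 1045 with DESeq2 size factors, 1262 of 18529 with no count filter, 1121 with DESeq2 and 936 of 14438 with the length trend removed. Positive members numbered 17 to 28 with a sample left out, and their median ran from 0.022 (without AM6545 E) to 0.16. With the title letter as a replicate block 26 members were positive, the median was 0.099 and 0 members passed; same-letter samples correlated in their deviations at -0.018 (A), 0.037 (B), 0.34 (C) and -0.021 (E). Left-out samples moved the ratio of Scn2a to Scn8a from -0.15 to -0.075 and that of Cacna1c to Cacna1d from 0.10 to 0.23.

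Of the 30 members reported one by one, 12 changed sign in 1 or more alternatives, 26 of 626 values in all; the cause was not tested. With limma-voom sample weights Nalcn was at -0.024, Scn2a at -0.016, Cacna1b at -0.013, Cacna2d1 at -0.0028 and Scn4b at 0.017. Cacna1d was at -0.0064 with the length trend removed. With a sample left out, log2 fold changes ran from -0.11 to 0.13 for Nalcn, -0.047 to 0.15 for Scn2a, -0.050 to 0.16 for Scn1a, -0.12 to 0.12 for Scn4b, -0.017 to 0.25 for Cacna1b, -0.044 to 0.093 for Cacna1d, -0.021 to 0.21 for Cacna1e, -0.027 to 0.13 for Cacna1i, -0.032 to 0.18 for Cacna2d1, -0.042 to 0.18 for Cacna2d2, -0.032 to 0.30 for Cacna2d4 and -0.36 to 0.23 for Hcn4. Over the 21 alternatives log2 fold changes ran from 0.17 to 0.30 for Cacna2d3, 0.20 to 0.33 for Hcn3 and 0.18 to 0.38 for Cacnb1. They ran from 0.14 to 0.35 for Cacna1h and -0.22 to -0.14 for Scn2b. Depth limits Hcn4 and Cacna1s, which had 5 to 26 counts a sample.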
